A study of Mus musculus with 6 samples.

Results

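The collagen genes of cultured small-intestinal mesenchymal cells are described here, compared between cultures made from mouse embryos of day 14.5 (E14.5) and cultures made from adult mice. Members are the genes whose symbol has the form Col, a number, a and a number, which took 43 of the 23329 genes in the count tables. Mesenchymal cells are the connective tissue and muscle-lineage cells that lie under the gut epithelium. The 3 E14.5 and 3 adult cultures all came from C57 mice, with no transgene, deletion or sort named in the labels. Adult gut was opened and its villi were scraped off before the epithelium was removed, and embryonic gut was cut into pieces. Both were then digested with collagenase and dispase. The cells grew to confluence in RPMI medium with fetal bovine serum, beta-mercaptoethanol and the ROCK inhibitor Y27632. RNA was taken at passage 2 to 3, and its poly(A) fraction went into strand-specific libraries, sequenced from 1 end for 75 bases. The labels do not say which animals or litters the cultures came from, so p-values measure only the spread between these cultures. The name of every deposited table also holds the term PBS, and what it stands for is not said in the labels. As cultured cells, they show neither the tissue levels of these genes nor deposited protein.

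Collagens are secreted proteins that wind as 3 chains into a triple helix. Fibrillar collagens (types I, II, III, V, XI, XXIV and XXVII) form the fibres that give connective tissue its strength, and types V and XI are known to sit inside thicker fibres and to limit their width. Network collagens form sheets, chiefly type IV of basement membranes and types VIII and X. FACIT collagens, such as types XII and XIV, attach to the surface of fibrils. Type VI forms beaded filaments near cells. Subepithelial fibroblasts and smooth muscle cells of the gut are known producers of types I, III, IV and VI.

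Between 18850224 and 32672370 counts per library fell on genes. Levels are given as CPM, counts per 1000000 counts of a library total scaled between libraries. The 10 fibroblast markers summed to 5370 to 9239 CPM at E14.5 against 5736 to 8573 CPM in adult cultures, and the 8 smooth muscle markers to 26389.5 to 37940 and 19583 to 31152 CPM. Among their large members were Acta2, at 9867 to 15455 and 8659 to 15042 CPM, and Vim, at 3264 to 3696 and 3046 to 3916 CPM. Other members separated the groups, and not all in the same direction. Des measured 1721 to 2624 and 236 to 1023 CPM, Thy1 39.6 to 128 and 173 to 358 CPM, and Mfap5 72.9 to 87.6 and 116 to 335 CPM. The fibroblast marker Dpt had no counts at E14.5 and at most 0.105 CPM in adults, and Pdgfra, the receptor gene that marks many gut fibroblasts and the only one of all the marker genes that passed the test described below, measured 2.47 to 4.45 CPM at E14.5 against 29.4 to 80.9 CPM in adults. The 7 epithelial markers summed to 25.4 to 61.8 CPM at E14.5 against 10.4 to 14.6 CPM in adults, without overlap. Most of this was Krt20, at 24.4 to 61.3 and 9.08 to 13.7 CPM, while Epcam did not exceed 0.141 CPM in any library. The 8 glial and neural markers summed to 13.8 to 57.2 CPM at E14.5 and 76.8 to 146 CPM in adults, also without overlap. Most of that was Tubb3, at 12.7 to 44.9 and 74.0 to 137 CPM. Endothelial markers (12 genes) summed to 43.3 to 130 CPM in E14.5 libraries and to 232, 2502 and 709 CPM in adult replicates 1, 2 and 3. Most of the sum at E14.5 and in adult replicate 1 was Eng, at 25.4 to 91.1 and 202 CPM. In adult replicate 1 Pecam1 measured 0.946 CPM and Cdh5 0.908 CPM. Summed levels of 12 macrophage and leukocyte markers were 232, 445 and 2733 CPM in E14.5 replicates 1, 2 and 3 against 24.7 to 201 CPM in adults. For 9 mesothelial markers the sums were 193, 882 and 174 CPM in the E14.5 replicates in that order and 599 to 1604 CPM in adults. For 7 pericyte markers they were 697 to 1213 CPM at E14.5 and 1079 to 1192 CPM in adults, with members that went opposite ways. Rgs5 measured 15.7 to 240 and 1.76 to 7.74 CPM, and Cspg4 2.54 to 19.1 and 46.3 to 67.2 CPM. In these bulk samples, fewer cells of a type and less RNA per cell cannot be told apart.

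Collagen RNA took a few percent of all gene counts at both stages. Collagen genes took 3.46%, 2.48% and 3.65% of gene counts in E14.5 replicates 1, 2 and 3, and 3.44%, 2.73% and 3.71% in adult replicates 1, 2 and 3. The groups overlapped in this share, and replicate 2 was the lowest in each. Scaled to transcript length, as CPM per kb of the transcript with the longest coding sequence, Col1a1 led in both groups with means of 1600.4 at E14.5 and 889.8 in adult cultures. Col5a2 and Col4a1 came next in both, at 802 and 731 at E14.5 and 877 and 842 in adults. Fibrillar genes took 65.1% to 69.5% of the summed CPM per kb in E14.5 libraries and 53.2% to 64.0% in adult ones. Network genes took 25.7% to 32.5% and 29.6% to 39.5%, and FACIT genes 2.14% to 3.68% and 4.05% to 4.67%. Type VI genes took 0.168% to 0.912% at E14.5 and 1.84% to 2.43% in adult libraries. Of these 4 shares, that of the network genes overlapped between the groups and the others did not. Col1a1 alone made up 35.3%, 24.9% and 35.0% in the E14.5 replicates and 17.9%, 15.7% and 16.5% in the adult ones. Col1a2, its partner in type I collagen, made up 5.21% to 7.04% at E14.5 and 11.5% to 14.1% in adults.

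**Figure D1:**
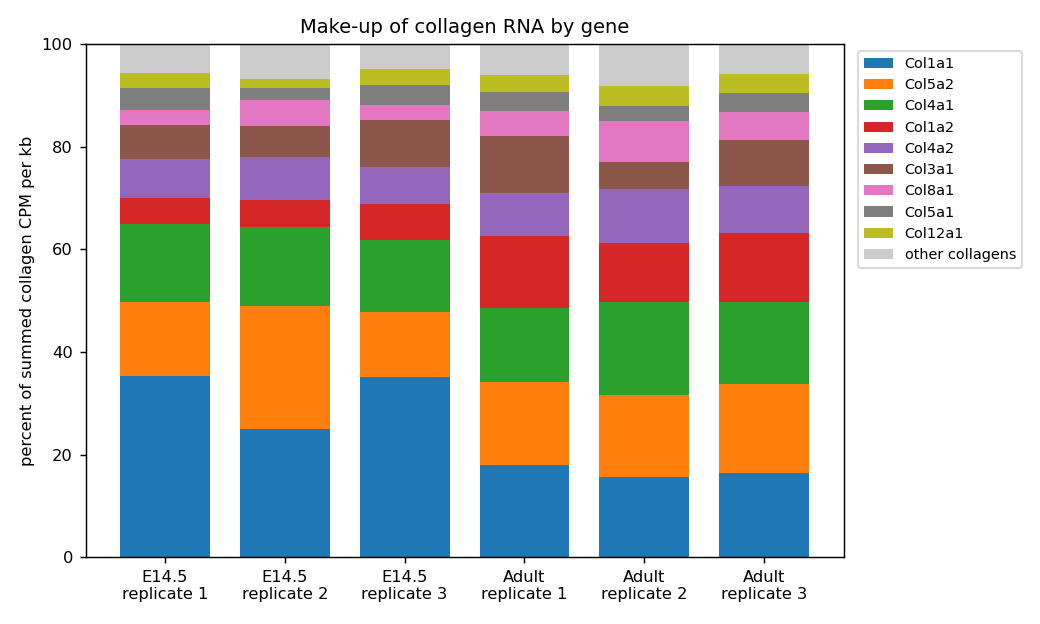
Stacked bars show, for each of the 6 libraries, the percent of summed collagen CPM per kb of transcript taken by the 9 most abundant collagen genes and by the remaining collagens. Col1a1 takes 24.9% to 35.3% at E14.5 and 15.7% to 17.9% in adult libraries, and Col1a2 5.21% to 7.04% and 11.5% to 14.1%.

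Differences were tested with edgeR's quasi-likelihood test over the 13478 genes that passed a filter on low counts, with Benjamini-Hochberg adjustment over all of them and a threshold of 0.05. Of the 43 collagen genes, 36 passed the filter and 1, Col6a1, fell in E14.5 relative to adult cultures, while 0 rose. Over all genes tested, 1.08% passed, 0.245% higher and 0.838% lower. At an unadjusted p under 0.05 there were 12 collagens, 5 higher and 7 lower, against 17.9% of all genes, 8.64% higher and 9.26% lower. DESeq2 called 9 collagens, 3 higher (Col11a1, Col24a1 and Col22a1) and 6 lower (Col6a1, Col6a2, Col8a1, Col1a2, Col2a1 and Col4a4), against 10.6% of all genes, 5.13% higher and 5.46% lower. Of these, Col22a1 passed the filter only through the E14.5 libraries, where it is high, so its call says nothing more. The same holds for its place among the 5 higher at an unadjusted p under 0.05. Col2a1 passed the filter through E14.5 replicate 3 and adult replicates 2 and 3, and was high only in those adult libraries. Its call and its place among the 7 lower at an unadjusted p under 0.05 therefore say nothing more either. With limma-voom Col6a1 was the 1 collagen called, where 1.02% of all genes were. The libraries of the groups did not overlap for 11 of the 36, 4 higher and 7 lower at E14.5, where 24.1% of all genes did not overlap, 12.1% higher and 12% lower. Col22a1 is 1 of these 4, and its place there says nothing more. The log2 fold change, E14.5 over adult, was negative for 25 of 36 collagens with a median of -0.31, beside 48.5% of all genes and a median of 0.01. By group, the median was -0.04 for 11 fibrillar, -0.36 for 9 network, 0.79 for 8 FACIT, -2.54 for 3 type VI and -0.66 for 5 other collagens that passed the filter. The FACIT median takes in Col22a1 and the fibrillar median Col2a1.

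**Figure D2:**
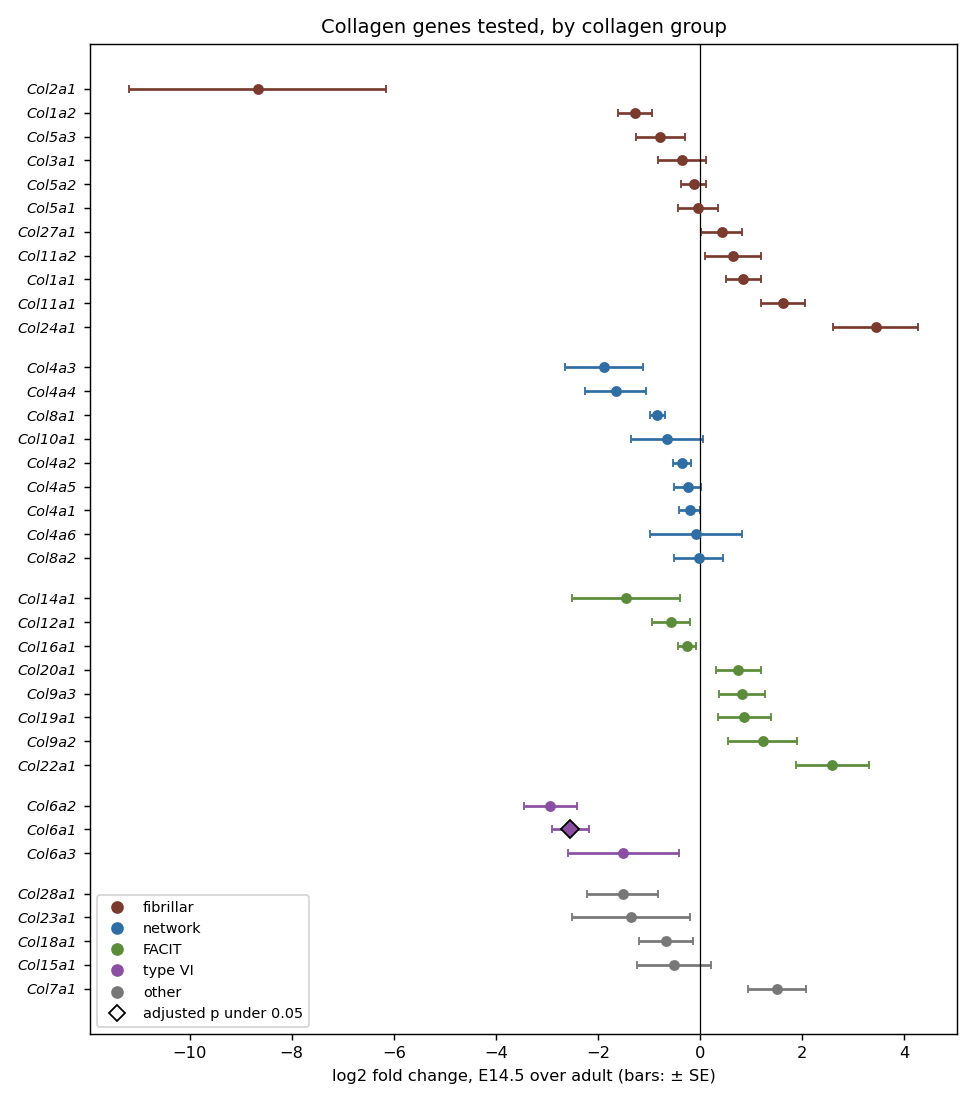
Points give the log2 fold change of each of the 36 tested collagens, E14.5 over adult, with bars of 1 approximate standard error, by collagen group. Col6a1 at -2.54 is the point past the adjusted threshold of 0.05, and all 3 tested type VI genes lie below 0.

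The type VI genes that passed the filter, 3 of 6, were lower in every embryonic library than in every adult one, as were 12% of all genes tested. Col6a1, which encodes a chain that every common type VI molecule needs, measured 29.6, 19.0 and 44.4 CPM in E14.5 replicates 1, 2 and 3 against 229.5, 138 and 174 CPM in adult replicates 1, 2 and 3. Every E14.5 library lay under every adult one. This made a log2 fold change of -2.54 with an SE of 0.36 (edgeR adjusted p = 0.041), or 5.82-fold lower at E14.5. Each sample title opens with a prefix that 1 E14.5 and 1 adult library share, and the labels leave it unexplained. Within prefixes the log2 difference was -2.96, -2.86 and -1.97. The call depended on which libraries were kept. Adjusted p rose to 0.092, 0.070 and 0.184 without adult replicate 1, 2 or 3 and to 0.136 without E14.5 replicate 1. In these fits the log2 fold change was -2.33, -2.71, -2.57 and -2.52. Of all genes tested, 1.08% were called with all libraries and 0.274%, 0.334%, 0.0217% and 0.0218% in these fits. With the prefix as a block the adjusted p of Col6a1 was 0.094. With DESeq2 it was 1.8e-10. Without adult replicate 2, the highest in endothelial markers, and E14.5 replicate 3, the highest in leukocyte markers, the log2 fold change was -3.06 (adjusted p = 0.056). Without adult replicates 2 and 3, the highest pair in endothelial markers, it was -2.90. That fit has 1 adult library, takes its spread from the E14.5 libraries alone and called 0 of all genes, so its adjusted p is no measure of stability.

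Col6a2 encodes the partner chain and lies on chromosome 10 of mm10, 85161 bases from Col6a1 (76708792 to 76726168) and on the same minus strand. It measured 12.0, 4.71 and 17.3 CPM in the E14.5 replicates and 120.5, 58.6 and 80.8 CPM in the adult ones. Again no E14.5 library reached the adult range, and the log2 fold change of -2.93 (SE 0.52) missed the threshold in edgeR (adjusted p = 0.068) and passed it in DESeq2 (adjusted p = 1.6e-07). Col6a3, the gene of the largest chain, measured 135, 7.20 and 341 CPM at E14.5 against 389, 489 and 497 CPM in adults. E14.5 replicate 2 stood far under the other libraries, and the spread within E14.5 left the log2 fold change at -1.51 (SE 1.09, adjusted p = 0.554). Leaving out E14.5 replicate 3 moved it to -2.69, and leaving out E14.5 replicate 2 moved it to -0.95. The remaining type VI genes encode chains that can replace that of Col6a3, and none passed the filter. Col6a4 had 62, 2 and 47 counts in the E14.5 replicates and 1 to 3 in adults, Col6a6 had 1 count in all 6 libraries and Col6a5 had none.

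The bases before the start of Col6a1 and Col6a2 are shown because these nearby genes lay lower together, with those of Col8a1, which also lay lower, and of Col11a1 and Col24a1, which lay higher at E14.5 without overlap. The sequences are RefSeq windows of build GRCm38.p6, the assembly also called mm10, printed 5′ to 3′ on the gene's strand and ending at the base before the start of the gene. For Col6a1 they stop where the GENCODE vM21 gene begins. The stretches are chr10:76726169-76726294 (minus strand), chr10:76623631-76623880 (minus), chr16:57754738-57754987 (minus), chr3:114030290-114030539 (plus) and chr3:145292222-145292471 (plus). Capitals mark the GC box GGGCGG and the CCAAT box, CCAAT, on either strand (CCGCCC and ATTGG when read on the printed strand).
Col6a1: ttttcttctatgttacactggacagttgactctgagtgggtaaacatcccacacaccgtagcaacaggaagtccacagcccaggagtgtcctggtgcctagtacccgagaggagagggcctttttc
Col6a2: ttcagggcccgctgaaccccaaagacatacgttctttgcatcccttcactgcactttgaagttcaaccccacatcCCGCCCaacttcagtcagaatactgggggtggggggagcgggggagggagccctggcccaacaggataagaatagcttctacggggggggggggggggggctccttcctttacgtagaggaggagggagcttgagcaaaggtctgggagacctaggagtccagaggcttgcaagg
Col8a1: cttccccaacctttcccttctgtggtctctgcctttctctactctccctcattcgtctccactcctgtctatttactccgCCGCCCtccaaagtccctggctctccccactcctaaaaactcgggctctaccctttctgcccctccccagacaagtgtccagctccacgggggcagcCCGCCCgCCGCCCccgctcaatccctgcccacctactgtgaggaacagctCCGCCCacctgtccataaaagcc
Col11a1: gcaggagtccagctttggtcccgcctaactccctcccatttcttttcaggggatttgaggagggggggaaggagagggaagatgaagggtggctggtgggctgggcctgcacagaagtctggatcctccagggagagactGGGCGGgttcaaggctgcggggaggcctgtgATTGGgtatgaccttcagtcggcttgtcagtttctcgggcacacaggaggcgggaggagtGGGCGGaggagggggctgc
Col24a1: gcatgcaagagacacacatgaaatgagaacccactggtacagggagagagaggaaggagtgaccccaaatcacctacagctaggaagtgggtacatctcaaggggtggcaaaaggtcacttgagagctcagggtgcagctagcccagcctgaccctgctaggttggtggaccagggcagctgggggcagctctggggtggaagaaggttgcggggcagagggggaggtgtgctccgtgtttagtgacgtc
The printed stretches held 4 GC boxes in Col8a1, 2 in Col11a1, 1 in Col6a2 and none in Col24a1 or the 126 bases of Col6a1. Col6a2 has a further RefSeq start inside the GENCODE gene, and the 250 bases before it, not printed, held 3 GC boxes. Of the 5 printed stretches, that of Col11a1 alone held a CCAAT box, and none held a TATA box (TATAAA or, on the other strand, TTTATA). Windows were given for 35 of the 43 members, 38 windows in all because some genes have more than 1 start. A GC box stood in 57.9% of the collagen windows and 32.7% of all 32851 windows of the same length, a CCAAT box in 34.2% and 33.8%, and a TATA box in 13.2% and 12.4%. The GC content of the windows had a median of 59.0% for collagens and 52.4% for all.

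The chains of type I collagen, the main fibre of connective tissue, had fold changes of opposite sign. Col1a1 (chromosome 11 of mm10, 94936224 to 94953042, plus strand) measured 11528, 5742 and 11202 CPM in E14.5 replicates 1, 2 and 3 against 6142, 3705 and 5982 CPM in adult replicates 1, 2 and 3. E14.5 replicate 2 lay within the adult range, for a log2 fold change of 0.85 with SE 0.34 (edgeR adjusted p = 0.271). Col1a2 (chromosome 6, 4504814 to 4541544, plus strand) measured 1532, 1087 and 2030.5 CPM at E14.5 against 4363, 2440.1 and 4436 CPM in adults. Its groups did not overlap, with a log2 fold change of -1.27 (SE 0.33) that passed in DESeq2 (adjusted p = 0.0024) and not in edgeR (adjusted p = 0.129). Between libraries of 1 title prefix, the log2 difference was 0.91, 0.63 and 0.91 for Col1a1 and -1.51, -1.17 and -1.13 for Col1a2.

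The ratio of Col1a1 to Col1a2 within each library shows this most plainly, since it does not depend on how libraries are scaled. It was 7.52, 5.28 and 5.52 in the E14.5 replicates and 1.41, 1.52 and 1.35 in the adult ones, or 6.11 ± 1.23 against 1.42 ± 0.0862 (SD, n = 3 each). The type I molecule of most tissues holds more of the chain from Col1a1 than of that from Col1a2. Scaled to transcript length, the ratio was 4.76 to 6.79 at E14.5 and 1.22 to 1.37 in adult libraries. Ratios of any 2 tested collagens separated the groups in 36.5% of 630 pairs, and in 53.8% of the 78 pairs among the 13 collagens with a mean of at least 100 CPM. Among these 78 pairs, that of Col1a1 and Col1a2 had the 6th widest gap between the groups. Col6a1 is among the 13 only through the adult libraries, with a mean of 31.0 CPM at E14.5 against 180 CPM in adults. All the wider gaps except that of Col11a1 with Col1a2 were of pairs with Col6a1, so the share and this rank depend on its place in the set. The log2 difference of the ratio was 2.08 with all libraries, 1.92 to 2.18 with each library left out, and the unstranded counts gave 5.30 to 7.54 and 1.35 to 1.52.

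**Figure D3:**
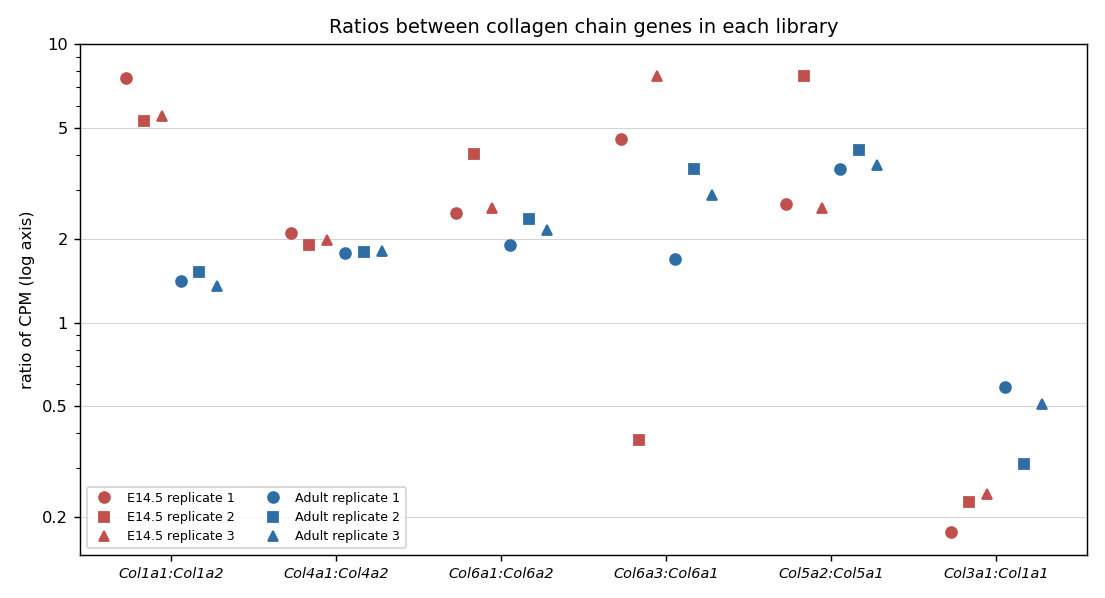
Points give the ratio of CPM between 6 pairs of collagen genes in each of the 6 libraries, on a log axis. Col1a1:Col1a2 lies at 5.28 to 7.52 at E14.5 and 1.35 to 1.52 in adult libraries, whereas Col6a3:Col6a1 and Col5a2:Col5a1 overlap between the groups.

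Type III and type V genes overlapped between the stages. Col3a1, whose fibres are prominent in soft organs such as the gut, measured 2040.2, 1307 and 2721 CPM at E14.5 against 3604, 1149 and 3051 CPM in adult cultures (log2 fold change -0.36 with SE 0.47, adjusted p = 0.769). Its ratio to Col1a1 was 0.177 to 0.243 at E14.5 and 0.310 to 0.587 in adult libraries, without overlap. This gap ranked 32nd among the 78 pairs, of which 53.8% separated the groups. Col5a2 measured 5226, 6166 and 4553 CPM at E14.5 against 6247, 4194 and 6985 CPM in adult cultures (log2 fold change -0.13 with SE 0.24, adjusted p = 0.857). Col5a1, for the other main chain of type V, measured 1954, 802 and 1759.8 CPM and 1752, 1010.0 and 1896 CPM (log2 fold change -0.04 with SE 0.40, with a sign that changed to 0.019 when libraries were scaled by size alone). The ratio of Col5a2 to Col5a1 stood at 7.69 in E14.5 replicate 2 and at 2.59 to 4.15 in the other libraries. Col5a3, the least abundant type V gene, measured 6.85 to 20.6 CPM at E14.5 against 13.2 to 33.2 CPM in adults.

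Col11a1 and Col24a1 were higher in every embryonic library than in every adult one. Col11a1 (chromosome 3, 114030540 to 114220718, plus strand) encodes a chain of type XI collagen, best known from cartilage and from embryonic tissue. It measured 1143, 698 and 623 CPM at E14.5 against 345, 129 and 328 CPM in adults. The groups did not overlap, and the log2 fold change of 1.62 had SE 0.43 (adjusted p = 0.136 in edgeR and 0.0027 in DESeq2). Per kb, Col11a1 was the 10th most abundant collagen at E14.5 and the 13th in adults. Col24a1 (chromosome 3, 145292472 to 145552011, plus strand), a fibrillar gene known from developing bone and eye, measured 67.3, 6.30 and 34.0 CPM at E14.5 against 3.67, 2.28 and 3.94 CPM in adults. Its groups did not overlap, although E14.5 replicate 2 lay close to the adults, and the log2 fold change of 3.44 had SE 0.83 (adjusted p = 0.118 in edgeR and 6.1e-05 in DESeq2). Without E14.5 replicate 2 its adjusted p in edgeR was 0.019. Col11a2 and Col27a1 overlapped between the groups, at 1.21 to 5.00 and 9.65 to 31.6 CPM at E14.5 against 1.62 to 2.43 and 14.9 to 16.1 CPM in adults.

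**Figure D4:**
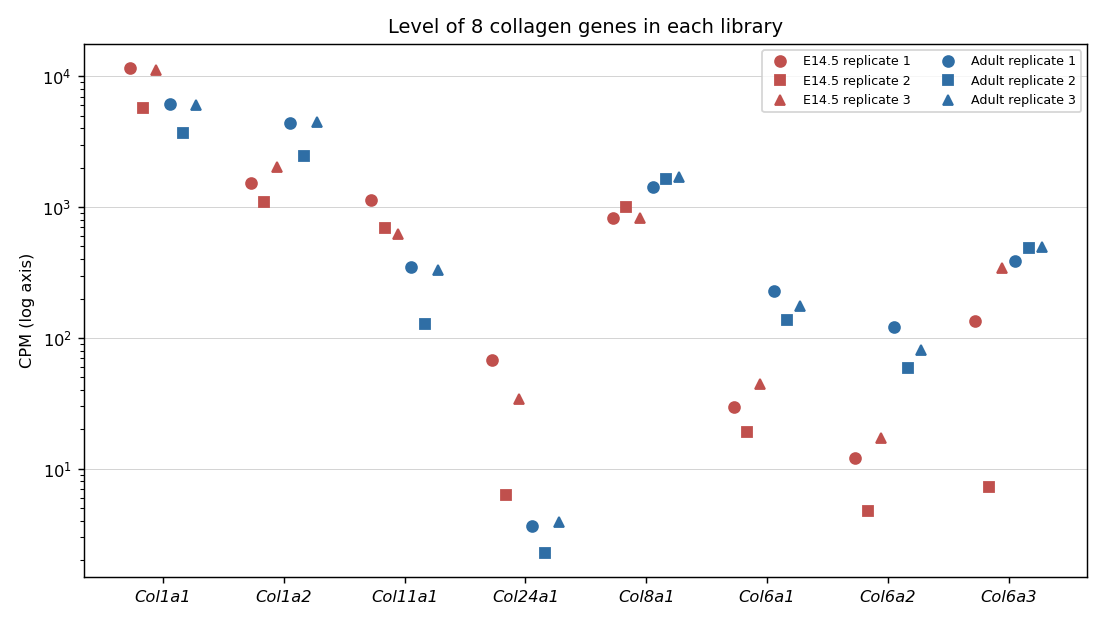
Points give the CPM of 8 collagen genes in each of the 6 libraries, on a log axis. Col11a1 and Col24a1 are higher and Col1a2, Col8a1, Col6a1, Col6a2 and Col6a3 lower in every E14.5 library than in every adult one, and Col1a1 overlaps.

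Col2a1, the main fibrillar gene of cartilage, was abundant in 2 adult libraries only. It measured 289.9 CPM in adult replicate 2 and 18.5 CPM in adult replicate 3, against 0.151 CPM in adult replicate 1 and 0.250, 0.0931 and 0.401 CPM in E14.5 replicates 1, 2 and 3. The fitted log2 fold change of -8.67 (SE 2.52, adjusted p = 0.151) rested on these libraries, and without both it was 0.69. The cartilage collagen genes Col9a1, Col9a2 and Col9a3 stayed scarce in every library. Col9a1 had 1 count in all 6 libraries, and Col9a2 and Col9a3 measured 0.397 and 0.298 CPM in adult replicate 2.

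The main basement membrane collagen genes, abundant at both stages, did not pass the test. Col4a1 and Col4a2, whose chains form the type IV molecule of most basement membranes, start 21 bases apart on opposite strands of chromosome 8. Col4a1 measured 5537, 3969.6 and 4996 CPM at E14.5 against 5484, 4811 and 6408 CPM in adult cultures (log2 fold change -0.20 with SE 0.20, adjusted p = 0.689). Col4a2 measured 2651, 2085 and 2531 CPM at E14.5 against 3098, 2689 and 3551 CPM in adult cultures (log2 fold change -0.36 with SE 0.18, adjusted p = 0.364), and its groups lay apart by a small margin. Their ratio was 1.90 to 2.09 at E14.5 and 1.77 to 1.80 in adult libraries, a gap that ranked 38th among the 78 pairs, of which 53.8% separated the groups.

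The minor type IV genes, which are also arranged as head-to-head neighbours, varied more between libraries. Col4a3 and Col4a4, known from the basement membranes of kidney and lung, start 72 bases apart on chromosome 1. Col4a3 measured 10.7, 111 and 53.0 CPM in adult replicates 1, 2 and 3 and 19.6, 15.9 and 11.8 CPM in the E14.5 ones. Col4a4 measured 7.68, 40.8 and 34.3 CPM in the adult replicates and 9.13, 10.9 and 6.39 CPM in the E14.5 ones. Adult replicate 1 therefore lay with the embryonic libraries in both genes. The fitted log2 fold changes of -1.88 (SE 0.76, adjusted p = 0.269) and -1.65 (SE 0.60, adjusted p = 0.228) became 0.55 and 0.19 without adult replicates 2 and 3. Col4a5 and Col4a6, on chromosome X with starts 1309 bases apart, encode chains of smooth muscle basement membranes. Col4a5 measured 429, 728 and 384 CPM at E14.5 against 628, 529 and 663 CPM in adult cultures (log2 fold change -0.24 with SE 0.26, adjusted p = 0.724). Col4a6 measured 19.1, 147 and 12.7 CPM and 73.6, 47.2 and 68.7 CPM. The highest E14.5 value of each belonged to replicate 2. Without that library Col4a6 was called lower at E14.5, with a log2 fold change of -1.99 (adjusted p = 0.035).

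Type VIII collagen forms networks in vessel walls and under endothelium. Col8a1 (chromosome 16, 57624258 to 57754737, minus strand) was lower in the embryonic cultures by a small and even margin. It measured 826, 997 and 826 CPM at E14.5 against 1423, 1627 and 1696 CPM in adults, with no overlap. The log2 fold change of -0.84 (SE 0.15) had an adjusted p of 0.067 in edgeR and 5.3e-06 in DESeq2. Among the prefix pairs the log2 difference was -0.79, -0.71 and -1.04. Col8a2, the gene of the partner chain, measured 59.7, 27.6 and 50.1 CPM at E14.5 against 62.8, 19.5 and 57.8 CPM in adult cultures (log2 fold change -0.03 with SE 0.49, adjusted p = 0.983), with a sign that changed under upper-quartile scaling (0.011) and library size alone (0.047). Col10a1, known from growth plate cartilage, measured 0.651 to 4.26 and 2.63 to 6.51 CPM. With all libraries and TMM scaling the log2 fold change was negative for 9 of 9 network genes. The sign of Col8a2 turned under those scalings and in other fits, and that of Col4a3, Col4a4, Col4a6 and Col10a1 turned in at least 1 fit with libraries left out. Of the 9, 0 passed the edgeR test, with 3 at an unadjusted p under 0.05 (17.9% of all genes) and 2 called by DESeq2 (10.6% of all genes).

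Among the 8 tested FACIT collagens, the fold change was negative for the 3 most abundant genes and positive for the scarcer ones, and 0 passed the edgeR test. At an unadjusted p under 0.05 there was 1 of 8, Col22a1, which DESeq2 also called. This was 12.5% by each rule, against 17.9% and 10.6% of all genes. Col12a1, a gene of stretched connective tissue, measured 1872, 751 and 1845 CPM at E14.5 against 2233, 1789 and 2652 CPM in adult cultures (log2 fold change -0.58 with SE 0.37, adjusted p = 0.501). Col14a1 measured 16.3, 3.69 and 98.5 CPM at E14.5 against 139, 71.3 and 114 CPM in adult cultures (log2 fold change -1.45 with SE 1.06, adjusted p = 0.558). The spread among the E14.5 libraries was wide, with replicate 3 inside the adult range. Without E14.5 replicate 3 the log2 fold change of Col14a1 was -3.44, and without E14.5 replicate 2 it was -0.91. Col16a1 measured 74.3, 71.4 and 91.6 CPM and 87.5, 81.4 and 116 CPM (log2 fold change -0.26 with SE 0.18, adjusted p = 0.515), and Col19a1 19.0, 9.18 and 15.9 CPM and 3.60, 13.6 and 7.03 CPM (log2 fold change 0.86 with SE 0.52, adjusted p = 0.470). Col22a1, known from tissue junctions, was at 1.91, 1.89 and 1.88 CPM at E14.5 against 0.681, 0.0992 and 0.141 CPM in adult cultures (log2 fold change 2.59 with SE 0.72, adjusted p = 0.141 in edgeR and 0.017 in DESeq2). It had 61 counts in each E14.5 library and 18, 2 and 4 in the adult replicates. It passed the filter on low counts only through the E14.5 libraries, so its call says nothing more. Col20a1 measured 3.38 to 6.69 and 1.76 to 3.82 CPM, and Col9a2 and Col9a3 stayed under 1 CPM in all libraries.

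The remaining collagens are anchoring, basement membrane-associated and membrane-spanning types at low levels. Col7a1, which encodes the anchoring fibrils that hold epithelium to stroma, measured 51.7, 12.1 and 40.9 CPM at E14.5 against 7.64, 17.4 and 11.8 CPM in adults. E14.5 replicate 2 lay within the adult range (log2 fold change 1.51 with SE 0.57, adjusted p = 0.239). Col18a1, the source of endostatin, measured 17.5, 3.91 and 17.6 CPM and 19.1, 19.9 and 22.9 CPM (log2 fold change -0.66 with SE 0.53, adjusted p = 0.603). Its E14.5 libraries all lay under the adult ones, replicates 1 and 3 narrowly. Col28a1 measured 4.28, 1.49 and 6.30 CPM and 17.7, 3.97 and 13.0 CPM (log2 fold change -1.52 with SE 0.70, adjusted p = 0.329). Col15a1, of basement membrane zones, measured 3.84, 1.02 and 5.19 CPM and 4.35, 1.94 and 8.08 CPM (log2 fold change -0.52 with SE 0.73, adjusted p = 0.792). Col23a1 ranged over 0.310 to 3.03 and 0.530 to 9.73 CPM. Of the genes under the filter, Col25a1 had 86, 5 and 28 counts at E14.5 and 1, 0 and 2 in adults, Col13a1 had 7, 0 and 24 counts and 0 in all adult libraries, and Col17a1 had 3 to 10 counts in every library. These counts are given with no test. Col25a1 and Col6a4 pass the filter on low counts when E14.5 replicate 2 is left out, and then only through the remaining E14.5 libraries, where they are high, so a call there says nothing more.

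Replicate 2 stood apart from its group for collagens at both stages. Of the 36 tested collagens, 27 had their lowest E14.5 level in E14.5 replicate 2, where 38.6% of all tested genes did, and 24 had their lowest adult level in adult replicate 2, beside 38.7% of all. These libraries share a title prefix. Their summed collagen levels were 24700 and 25523 CPM, and those of the other 4 libraries 34325 to 38988 CPM. Within the 3 prefixes, 19 of 36 collagens (52.8%) differed in the same direction each time, as did 37.9% of all tested genes with counts in every library. With E14.5 replicate 2 left out, 5 of these 36 collagens were called, Col24a1 as higher and Col6a1, Col6a2, Col8a1 and Col4a6 as lower, where 3.42% of all genes were called, 1.39% higher and 2.02% lower.

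In some libraries, marker levels of other cell types and levels of some of these genes were high or low together. Adult replicates 2 and 3, with the highest Col2a1, Col4a3 and Col4a4, also had the highest endothelial marker sums, and 10 of the 12 markers were highest in adult replicate 2, among them Pecam1 at 444 CPM and Cdh5 at 255 CPM. Kdr was not, at 15.5, 14.1 and 17.3 CPM in adult replicates 1, 2 and 3, nor was Lyve1, at 0.946, 0.893 and 0.984 CPM. The endothelial marker Cldn5 had no counts at E14.5 and at most 0.546 CPM in adults. In E14.5 replicate 2, with the lowest Col6a3, Col14a1 and Col24a1 and the highest Col4a6 of the E14.5 libraries, all 9 mesothelial markers were above the other E14.5 libraries, among them Upk3b at 216 CPM against 37.9 and 25.5 CPM. Some fibroblast markers were lowest in the same library. Lum measured 55.6 CPM there against 447 and 685 CPM, Dcn 630 against 2964 and 4321 CPM and Thy1 39.6 against 128 and 101 CPM. Of the 10 fibroblast markers, 1, Vim, was above the other E14.5 libraries in it. Of the 36 tested collagens, 27 had their lowest E14.5 level in that library, so a low level there is not particular to the genes named. Adult replicate 1 had the highest mesothelial sum, 1604 CPM, together with 389 CPM of Col6a3 and 139 CPM of Col14a1. The part of these cells, or of cells with the fibroblast, smooth muscle, epithelial, glial and neural, pericyte or leukocyte markers, in the collagen levels was not tested.

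**Figure D5:**
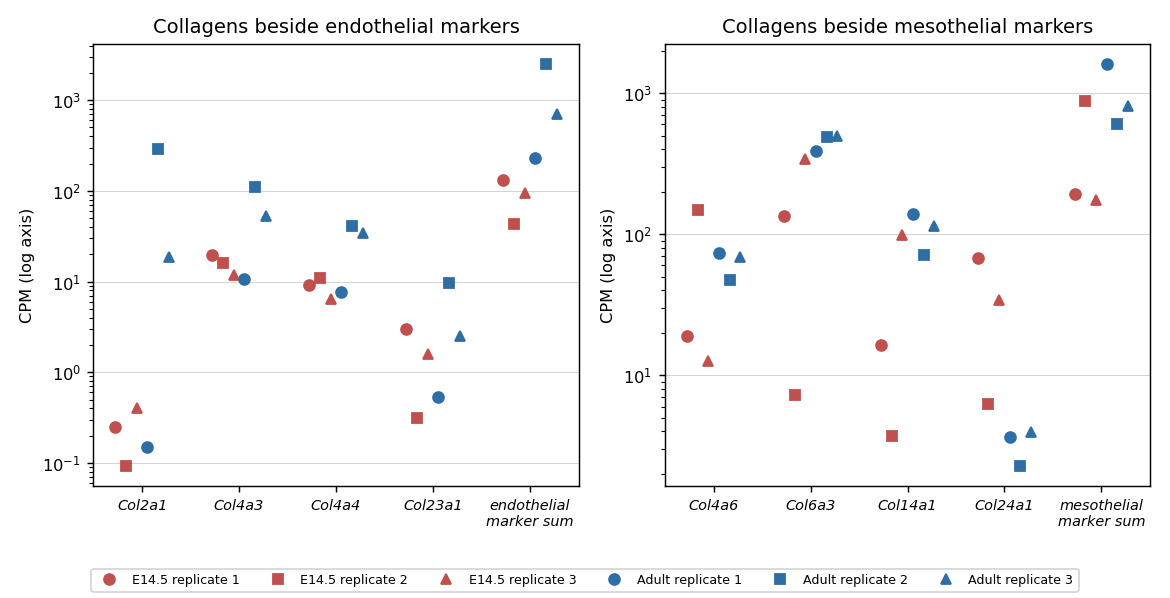
Points give, for each of the 6 libraries on a log axis, the CPM of 4 collagens beside the summed CPM of 12 endothelial markers (left) and of 4 collagens beside that of 9 mesothelial markers (right). Adult replicates 2 and 3 are highest in Col2a1, Col4a3, Col4a4 and the endothelial sum, and E14.5 replicate 2 has the highest mesothelial sum of its group, 882 CPM. Col23a1 is highest in adult replicate 2, at 9.73 CPM, but E14.5 replicate 1 at 3.03 CPM lies above adult replicate 3 at 2.53 CPM.

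Genes that build, cross-link and bind collagen were examined as 3 lists, beside the shares over all genes of 1.08% for edgeR, 17.9% for an unadjusted p under 0.05, 10.6% for DESeq2 and 1.02% for limma-voom. Of 17 tested genes for chain modification, folding and export, 0 passed the edgeR test, and the median of their log2 fold changes was 0.09. By unadjusted p under 0.05 there was 1, by DESeq2 1 and by limma-voom 0. Serpinh1, the collagen chaperone gene, measured 2856 ± 541 CPM at E14.5 against 2272 ± 349 CPM in adults (SD, n = 3 each), and P4hb, whose product is a subunit of prolyl hydroxylase, 1343 ± 179 and 1114 ± 152 CPM. Of 12 tested genes for procollagen processing and cross-linking, Loxl3 fell and 0 rose, with a median of 0.29. Here 3 had an unadjusted p under 0.05, and DESeq2 called 1. Loxl3, a lysyl oxidase-like gene, measured 12.8, 9.12 and 15.2 CPM at E14.5 against 42.4, 65.8 and 65.1 CPM in adult cultures (log2 fold change -2.22 with SE 0.26, adjusted p = 0.033, edgeR). The main cross-linking gene Lox measured 4669 ± 1127 and 4386 ± 1686 CPM, and Loxl2 3059 ± 467 and 2004 ± 559 CPM. Of 11 tested collagen receptor genes, Gpr56, a receptor for type III collagen, fell and 0 rose, with a median of -0.65. There 4 of the 11 had an unadjusted p under 0.05, and DESeq2 called 4, 1 higher and 3 lower. Gpr56 measured 0.813, 0.589 and 0.494 CPM at E14.5 against 17.0, 9.28 and 16.2 CPM in adult cultures (log2 fold change -4.48 with SE 0.37, adjusted p = 0.018, edgeR). Itgb1, the integrin chain shared by the collagen-binding integrins, measured 4092 ± 666 and 3297 ± 145 CPM, and Itga11, which pairs with it to bind type I collagen, 427 ± 269 and 893 ± 314 CPM. The highest adjusted p under any alternative was 0.471 for Loxl3 and 0.319 for Gpr56.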

How the data were processed

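Read counts per gene were deposited for 6 libraries, 3 from E14.5 and 3 from adult cultures. STAR and mm10 are named in the submitters' processing notes. STAR's version, the annotation and the counting settings were not given in the sources used here. Deposited values are whole-number counts in 3 columns (unstranded, forward and reverse strand). The reverse-strand counts were used, since forward counts were 1.33% to 1.69% of stranded gene counts. Rows that name no gene (unmapped, multimapping, unassigned and ambiguous reads) held 17.4% to 19.8% of reads and were left out. Replicates were numbered in accession order.

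Counts were filtered with filterByExpr, scaled by TMM and tested with edgeR 4.0.16 in R 4.3.3 (robust quasi-likelihood test, group only, Benjamini-Hochberg over all genes tested, threshold 0.05). The standard error is the log2 fold change divided by the square root of F, which is approximate. CPM use TMM-scaled totals. Coordinates and lengths come from GENCODE vM21. Alternatives were other scalings and filters, DESeq2 1.42.0, limma-voom (limma 3.58.1), an adjusted p of 0.01, the unstranded column, a block for the title prefix, each library left out, and 3 pairs of libraries left out (added after seeing the data). The edgeR fit alone was also run on simulated counts, which held no cell mix or prefix effect, and the other steps were not tested that way. Full statistics were given for collagens past the test, with an unadjusted p under 0.05 or among the 4 most abundant of their group. From each companion list, up to 3 genes past the test in each direction and the 2 most abundant were named. Members, lists and tests were chosen with earlier results of these data known. Emid2, an older symbol of the type XXVI gene, does not match the rule and was not used here.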

Additional observations from a re-analysis of the deposited data

How the results depend on the processing

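Counting 1 collagen lower and 0 higher rested on the tool and the libraries. DESeq2 called 6 lower and 3 higher, of which Col22a1 passed the filter only through the E14.5 libraries where it is high. Of the lower ones, Col2a1 passed it through E14.5 replicate 3 and adult replicates 2 and 3, and was high only in those adult libraries. The count of lower collagens was 0 at an adjusted p of 0.01, 0 with the title prefix as a replicate block, and 0 to 4 with 1 library left out, while that of higher ones was 0 to 3. Of the 3 higher without E14.5 replicate 2, Col25a1 and Col6a4 passed the filter only through the E14.5 libraries where they are high. In fits added after seeing the data, it was 0 with adult 2 and E14.5 3 left out, 0 with adult 2 and adult 3 left out, and 1 with E14.5 2 and adult 1 left out, where the called gene was Col4a4 and not Col6a1. Over all genes, 33 higher and 113 lower became 691 and 736 with DESeq2, 0 and 2 at an adjusted p of 0.01, 0 and 2 with the block, 0 to 192 and 2 to 279 with 1 library left out, 5 and 31 with adult 2 and E14.5 3 left out, 0 and 0 with adult 2 and adult 3 left out (1 adult library, assumed to vary like the E14.5 ones), and 38 and 69 with E14.5 2 and adult 1 left out. Over all genes tested, the prefix was not seen to pair the libraries: deviations of same-prefix libraries from their group means correlated at -0.141, -0.229 and -0.0875, and no library correlated best with its own prefix. For the collagens, the libraries of 1 prefix (replicate 2 of each group) were both the lowest in summed level.

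Medians moved by more than the spread between libraries for the FACIT list with a filter of 1 CPM in 3 libraries (0.24) and for the network list with limma-voom (-0.84), with the block (-0.84), without E14.5 replicate 2 (range with 1 library left out -0.58 to -0.22) and without E14.5 replicate 2 and adult replicate 1 (-0.55). Col6a1 kept its sign in all 18 alternatives. Among collagens not called, the sign changed without adult replicates 2 and 3 for Col4a4 (0.19), Col4a3 (0.55), Col2a1 (0.69) and Col23a1 (1.62); with adult 2 and E14.5 3 left out for Col23a1 (0.11) and Col4a6 (0.22); and without E14.5 replicate 2 and adult replicate 1 for Col3a1 (0.18), Col10a1 (0.26), Col5a1 (0.35) and Col8a2 (0.50). With 1 library left out, the log2 fold change ranged over both signs for Col5a2 (-0.32 to 0.023), Col23a1 (-2.16 to 0.10), Col15a1 (-0.98 to 0.086), Col27a1 (-0.034 to 0.77), Col5a1 (-0.29 to 0.26), Col8a2 (-0.40 to 0.24) and Col4a6 (-1.99 to 0.40). Scaling by library size changed the sign for Col5a1 (0.019) and Col8a2 (0.047), and Col8a2 also changed under upper-quartile scaling (0.011), limma-voom (0.033) and the replicate block (0.072). The cause was not tested. Scalings moved the median of all genes by at most 0.04 on the log2 scale. With 3 libraries a group, modest differences of variable genes could not be resolved, and counts under about 10 per library limit the scarce collagens.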

Other observations

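Among the 78 ratios of collagens with a mean of at least 100 CPM, Col6a1 with Col11a1 had the widest gap, 2.90 on the log2 scale, with a log2 difference of -4.29. Next came Col6a1 with Col1a1 (difference -3.41, gap 2.88) and Col11a1 with Col1a2 (difference 2.97, gap 1.95). Col6a1 is in this set only through the adult libraries, with a mean of 31.0 CPM at E14.5, so the rank of its gaps says nothing more. For Col1a1 with Col1a2, genes of the same molecule, the difference was 2.08 and the gap 1.80. These are values of genes chosen after their levels were seen and carry no test.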
